A study of Mus musculus with 49 samples.

Results

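The tTA transgene on its own was examined in the CA1 pyramidal cell layer of the hippocampus by setting the 5 CA1 arrays of tTA mice against the 6 CA1 arrays of DN mice, 11 of the 49 arrays in the series, chosen by the genotype and subfield in the sample titles. tTA mice carried the CaMKIIα-tTA transgene and no tau transgene. In them the tetracycline-controlled transactivator, a bacterial repressor fused to a viral activation domain, is made under the Camk2a promoter, which is active mainly in excitatory neurons of the forebrain. DN (double negative) mice were littermates with neither transgene. All were females of 6.1 months from the cross of a tTA line kept on 129S6 with a TRE-tau P301L line kept on FVB/N, and no doxycycline, the drug that switches tTA off, was named for these arrays. The tTA transgene has no probe set on the array, so its presence could not be checked in the values. The third genotype, rTg4510 with both transgenes (5 CA1 arrays), entered the fit only to share its estimate of the spread and is given beside a few genes. Mouse numbers ran from mouse4570 to mouse4637 in tTA and from mouse4797 to mouse4886 in DN, so that genotype and whatever goes with those numbers, such as birth cohort, cannot be told apart.

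CA1 pyramidal neurons are the main output cells of the hippocampus. They receive glutamate from CA3 at AMPA and NMDA receptors, carry 5-HT1A and muscarinic receptors, and are held in check by GABA interneurons whose cell bodies and axons lie in and around the same layer. tTA binds tet operator sequences, which the mouse genome does not contain as such, and tTA littermates are therefore the usual control for mice with a tet-driven transgene. From work on this line it is known that the CaMKIIα-tTA transgene sits near Vipr2 on chromosome 12 and the TRE-tau transgene in Fgf14.

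The capture held CA1 pyramidal cells in both genotypes. Wfs1, a membrane protein of the endoplasmic reticulum that marks CA1, was among the brightest signals at 11.41 ± 0.26 in tTA and 12.20 ± 0.06 in DN (mean ± SD of log2 RMA values, n = 5 and 6, as for all values below), and Camk2a itself stood at 11.88 ± 0.20 in tTA and 11.87 ± 0.20 in DN. The granule cell factor Prox1 was dim, at 3.10 ± 0.55 in tTA and 4.19 ± 0.77 in DN. A probe set is called dim where tTA or DN averaged less than 5.04, the middle value of all probe sets. Against a dim group a fold is a ratio of signals that include background.

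Array values stood apart in 2 ways before any gene was considered. The tTA array of mouse4592 correlated less with its own group than the rest (mean r 0.975, against 0.984 to 0.985 for the other 4 tTA arrays and 0.992 to 0.994 for the 6 DN arrays, over probe sets), and the median SD of a probe set was 0.220 in tTA and 0.159 in DN. The log2 ratio of the 3-prime to the 5-prime control probe set of Actb, a sign of RNA integrity and amplification, averaged -0.698 ± 0.163 in tTA and -0.373 ± 0.227 in DN, a difference of -0.326 (two-sided exact permutation test, p = 0.0173, adjusted over 2 ratios 0.0346). The Gapdh ratio was 3.04 ± 0.14 in tTA and 2.98 ± 0.29 in DN (two-sided exact permutation test, p = 0.667). Most list counts below are followed by the counts with the Actb ratio as a covariate and without mouse4592, in which the genes called need not be the same ones. Only the spread between mice is tested, and 1 array stands for 1 mouse.

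Between tTA and DN, 3656 of 22626 probe sets were called (limma, Benjamini-Hochberg adjusted p below 0.05, no fold minimum), 16.2% of those tested. 1653 of them (7.31% of all tested) were higher in tTA and 2003 (8.85%) were lower, and 7148 had an unadjusted p below 0.05. The largest changes were on the lower side: of 328 probe sets called at 2-fold or more, 92 were higher and 236 lower in tTA. In 2250 of the 3656, 61.5%, the tTA and DN arrays did not overlap at all, while 11.9% of all probe sets had arrays that did not overlap. A group mean was dim in 962 of the called probe sets (26.3%). With the Actb ratio as covariate 866 probe sets were called (295 higher, 571 lower), of which 833 were among the 3656, and without mouse4592 there were 2691 calls, 2468 of them shared. The part of the Actb ratio in the calls was not tested.

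**Figure D1:**
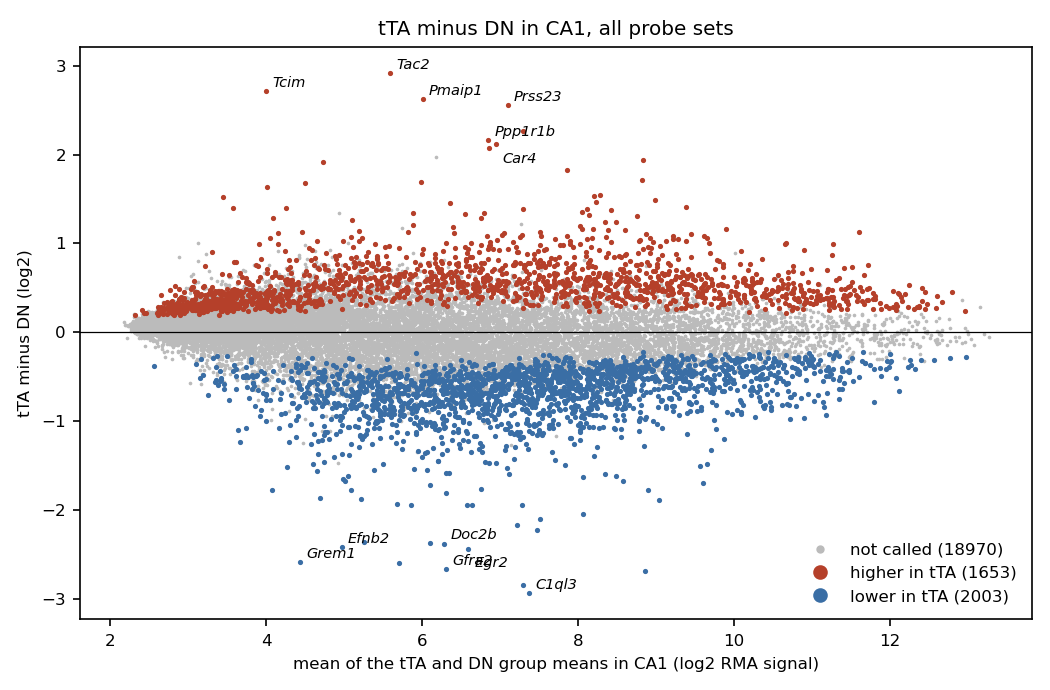
Log2 difference tTA minus DN (vertical axis) against the mean of both group means (horizontal axis, log2 RMA signal) for the 22626 probe sets in CA1, with the 1653 called higher in tTA in red, the 2003 called lower in blue and the rest in gray. The largest differences of both signs are labeled, and more blue than red points lie beyond 1 log2 unit.

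Tac2, which encodes neurokinin B, a tachykinin peptide, had the largest rise of all named genes. It read 6.46, 7.02, 7.08, 7.17 and 7.50 in the 5 tTA arrays, while the 6 DN arrays ran from 3.74 to 4.82 with a median of 3.99. Every tTA array lay far above every DN array, a 7.56-fold difference (log2 2.92 ± 0.25 SE, adjusted p = 7.59e-06). Tac2 was dim in DN (mean 4.13), so that this fold is a ratio to a signal that includes background. Pmaip1, the proapoptotic BH3-only protein Noxa, read 7.22, 7.81, 7.11, 7.54 and 6.92 in tTA and 4.32 to 4.90 (median 4.74) in DN, a 6.17-fold rise (log2 2.62 ± 0.19, adjusted p = 4.17e-06). Pmaip1 was dim in DN as well (mean 4.70), with the same limit on its fold. A second BH3-only gene, Hrk (harakiri), rose 3.22-fold (6.83 ± 0.27 in tTA, 5.14 ± 0.19 in DN, adjusted p = 1.37e-05). In none of these 3 genes did the genotypes overlap, which was a condition for the choice of the genes with the largest rises and falls. All 3 kept their calls in every alternative. In the list of p53 and cell cycle arrest genes, which holds Pmaip1, 2 of 18 were higher and 2 lower (median 0.02). That is 11.1% each way, against 7.94% higher and 8.52% lower of all measured genes.

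Other rises of this size came from genes of several kinds. Ppp1r1b, the dopamine and cyclic AMP regulated phosphatase inhibitor DARPP-32, was at 7.93 ± 0.42 in tTA and 5.77 ± 0.30 in DN (4.47-fold, adjusted p = 0.000117). Car4, a membrane-bound carbonic anhydrase, was the most even of them, with tTA arrays between 7.85 and 8.16 and DN arrays between 5.47 and 6.20 (4.35-fold, adjusted p = 7.39e-06). Tbr1, a T-box transcription factor of cortical glutamatergic neurons, read 10.01, 9.87, 9.59, 9.31 and 9.66 in tTA against 7.68 to 8.22 (median 7.99) in DN, 3.29-fold higher. Bace2, a homolog of the β-secretase Bace1, was near the floor of the array in DN (3.66 ± 0.09) and at 5.34 ± 0.62 in tTA (adjusted p = 7.63e-05), so that no fold is given. Bace1 went the other way, at 6.49 ± 0.28 in tTA and 6.95 ± 0.15 in DN (adjusted p = 0.0227), a call lost in 4 of the 11 fits that left out 1 array.

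In some of the rises the tTA mice differed widely among themselves. Tcim, a small regulator of Wnt signaling, read 6.04, 5.79, 4.79, 3.10 and 7.04 in tTA and 2.48 to 2.82 in DN, so that the mouse with the lowest tTA value lay just above the DN range (log2 2.71 ± 0.53, adjusted p = 0.00305). Prss23, a secreted serine protease, read 9.41, 9.08, 7.08, 7.27 and 9.06 in tTA and 5.17 to 6.72 (median 5.82) in DN. Lxn, the carboxypeptidase inhibitor latexin, read 9.76, 9.57, 8.05, 7.93 and 9.54 in tTA and 7.34 to 7.66 in DN. The tTA mice low for Prss23 and Lxn were the same 2, mouse4592 and mouse4626, and those were also the 2 lowest for Tcim. The remaining genes with the largest rises were Pet100, an assembly factor of cytochrome c oxidase (2.65-fold), and Hba-a1, α-globin of red blood cells (2.91-fold, with 10.05 in mouse4592 and 8.77 to 8.87 in the other 4 tTA mice). The other probe set of Pet100 stood at -0.04 and was not called.

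Among the genes with the largest falls, C1ql3, a secreted C1q-like protein of excitatory synapses, read 6.29, 3.93, 6.15, 7.34 and 5.83 in tTA, against 8.26 to 9.12 (median 8.92) in DN, 7.67-fold lower (log2 -2.94 ± 0.45, adjusted p = 0.000583). Gfra2, the neurturin receptor subunit, read 4.83, 5.38, 4.58, 5.27 and 4.82 in tTA and 7.13 to 8.14 (median 7.67) in DN, 6.37-fold lower (adjusted p = 1.96e-05). The tTA mean of Gfra2, 4.98, was dim. For both genes the lowest DN array lay well above the highest tTA array, and other probe sets of the gene fell as well (C1ql3 with log2 differences of -2.05 and -2.84, Gfra2 with -2.36), while 1 further Gfra2 probe set stood at -0.10 and was not called.

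Grem1, the secreted BMP antagonist gremlin, sank to the floor of the array: 2.98, 2.97, 3.41, 3.27 and 3.08 in tTA, against 5.04 to 7.13 (median 5.44) in DN. Doc2b, a calcium sensor of spontaneous vesicle release, was at 5.10 ± 0.62 in tTA and 7.48 ± 0.19 in DN (5.21-fold lower, adjusted p = 2.77e-05). Nptx1, neuronal pentraxin 1, which gathers AMPA receptors at synapses, was at 6.35 ± 0.52 in tTA and 8.58 ± 0.25 in DN (4.70-fold lower). Penk, the precursor of the enkephalin peptides, was tight in DN (8.44 to 8.71) and spread in tTA, where it read 5.98, 7.33, 5.38, 7.05 and 6.56. Kl, which encodes the aging-related membrane protein klotho, was 3.67-fold lower (4.27 ± 0.39 and thus dim in tTA, 6.15 ± 0.36 in DN). Ccnd2, cyclin D2, fell on all 6 of its probe sets, with log2 differences between -1.03 and -1.93.

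**Figure D2:**
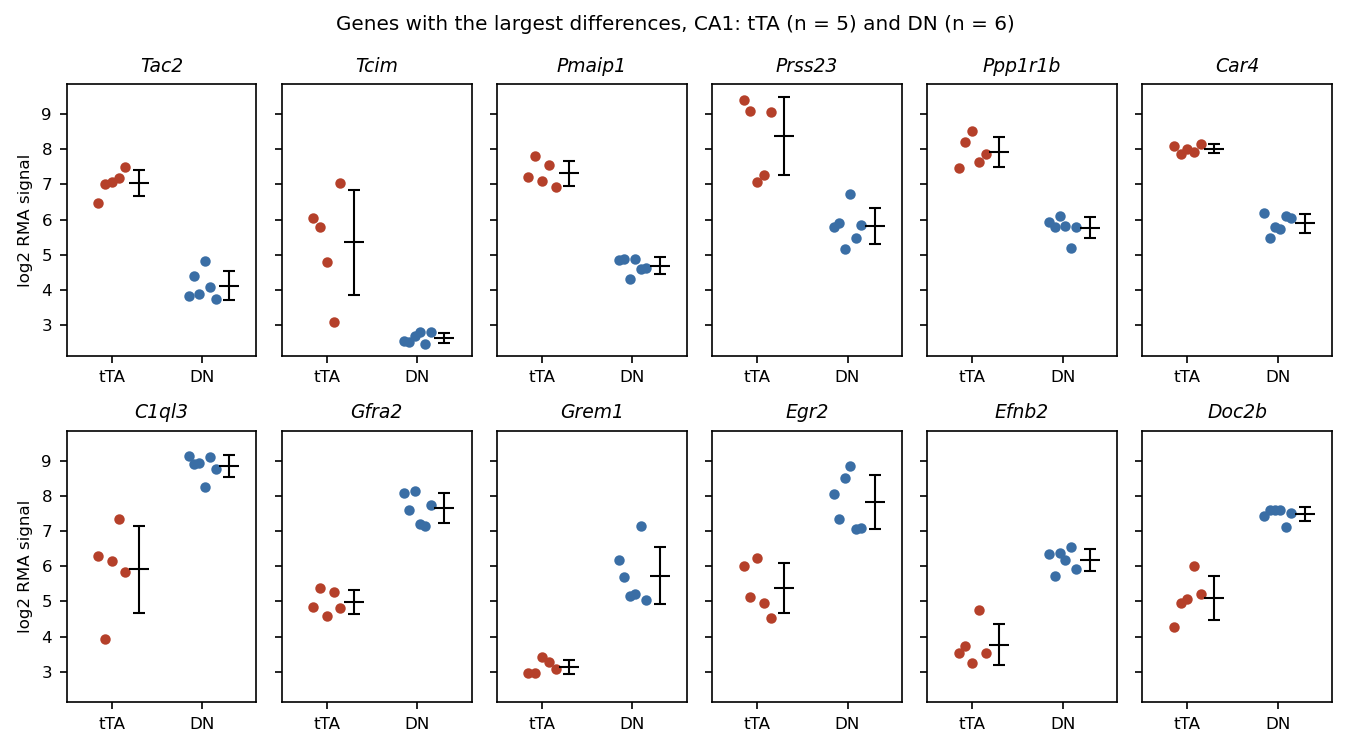
Log2 RMA signal (vertical axis) in each CA1 array for the 6 genes with the largest rises (top) and the 6 with the largest falls (bottom), tTA in red (n = 5) left of DN in blue (n = 6), with black marks for the mean and SD. In each of the 12 panels the tTA points lie wholly above or wholly below the DN points, which was a condition for the choice of these genes. Tcim, Prss23 and C1ql3 scatter most among tTA mice.

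Of 13 glutamate receptor genes measured, 6 fell and 1 rose, with a median difference of -0.72 (all 11807 measured genes, each by its brightest probe set: 7.94% higher, 8.52% lower, median 0.06). Those shares over all genes stand beside every CA1 list count below. Gria2, the AMPA subunit that blocks calcium entry, read 10.55, 10.71, 10.53, 10.92 and 10.87 in tTA and 11.56 to 11.74 (median 11.63) in DN, 1.90-fold lower (adjusted p = 2.77e-05). Its other, less bright probe set did not change (7.29 ± 0.09 in tTA, 7.23 ± 0.36 in DN, adjusted p = 0.814). Gria1 was 1.79-fold lower (10.05 ± 0.14 in tTA, 10.89 ± 0.12 in DN) and Grin2b, an NMDA subunit, 2.60-fold lower (5.57 ± 0.33 in tTA, 6.94 ± 0.46 in DN). At the brightest probe set of each of these 3 genes no array overlapped between genotypes, and the call was kept in every alternative. The list had 5 members lower and 0 higher with the Actb covariate, and 6 lower and 1 higher without mouse4592. In the GABA receptor list 4 of 9 fell and 1 rose, against 2 lower and 0 higher with the covariate and 4 and 1 without mouse4592. Gabra2 was at 8.79 ± 0.18 in tTA and 9.62 ± 0.09 in DN (adjusted p = 6.45e-05), Gabrb1 at 8.92 ± 0.26 in tTA and 9.66 ± 0.25 in DN, and Gabrg1, a subunit found in glia as well as neurons, rose to 7.39 ± 0.26 in tTA against 6.66 ± 0.20 in DN. The calls of Gabrb1 and Gabrg1 were lost with the covariate.

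Receptors for serotonin, other monoamines and acetylcholine moved in the same direction, with 5 of 15 measured genes lower and 0 higher (median -0.21), 5 lower with the Actb covariate and 6 lower without mouse4592. Htr1a, the 5-HT1A receptor, read 5.66, 6.35, 5.87, 7.02 and 6.65 in tTA against 7.97 to 8.44 (median 8.31) in DN, which is 3.86-fold lower (adjusted p = 4.54e-05). Htr1b was 2.58-fold lower (5.35 ± 0.30 in tTA, 6.72 ± 0.22 in DN, adjusted p = 0.000703). For both receptors every tTA array was below every DN array. Chrm1, the M1 muscarinic receptor, was 1.62-fold lower (6.14 ± 0.19 in tTA, 6.83 ± 0.33 in DN).

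Ion channels fell in part. Of 28 potassium channel genes 8 were lower and 2 higher, and of 20 sodium, calcium and HCN channel genes 4 were lower and 0 higher. Kcnh7, an ether-a-go-go related channel, was at 6.09 ± 0.50 in tTA and 7.44 ± 0.08 in DN, and Kcnip4, a subunit that tunes A-type currents, at 7.76 ± 0.29 in tTA and 8.54 ± 0.15 in DN. Cacna2d1, the calcium channel subunit bound by gabapentin, was 2.13-fold lower (8.01 ± 0.18 in tTA, 9.10 ± 0.27 in DN). Cacna1e, the R-type calcium channel, and Cacng3, an AMPA receptor auxiliary subunit, fell 2.22-fold and 2.40-fold. The potassium channel list had 2 lower and 0 higher with the Actb covariate and 5 lower and 1 higher without mouse4592, and the other list 1 lower with the covariate and 3 lower without mouse4592.

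Of 18 presynaptic genes 2 were lower (11.1%, near the 8.52% of all measured genes). They were Doc2b, above, and Syt1, the calcium sensor of fast release, at 11.03 ± 0.13 in tTA and 11.68 ± 0.18 in DN. Of 16 postsynaptic genes 3 were lower (18.8%), namely Dlg3, Lrrtm1 and Nlgn1, the last called only barely at adjusted p = 0.0480. The covariate left 1 presynaptic and 0 postsynaptic genes lower, with Syt1, Dlg3 and Lrrtm1 among the lost calls, and without mouse4592 there were 2 of each lower and 1 presynaptic gene higher. In the calcium and calmodulin list 6 of 29 fell and 0 rose, among them Ryr2, the ryanodine receptor (7.24 ± 0.10 in tTA, 8.12 ± 0.36 in DN), Atp2a2, the calcium pump of the endoplasmic reticulum, and Slc8a1, a sodium-calcium exchanger that was 2.72-fold lower. The other probe set of Slc8a1 stood at 0.17 and was not called (adjusted p = 0.573). In that list 3 were lower with the covariate, where Atp2a2 lost its call, and 6 without mouse4592. In the list of MAP kinase and Ras regulators 6 of 17 fell and 0 rose, including both guanine exchange factors Rasgrf1 (10.38 ± 0.12 in tTA, 11.21 ± 0.14 in DN, adjusted p = 0.000140) and Rasgrp1 (10.20 ± 0.13 in tTA, 10.89 ± 0.17 in DN), with 3 lower under the covariate, 6 without mouse4592 and 3 after a further quantile normalization. In the cyclic AMP list 5 of 22 fell, with the catalytic subunit Prkacb and the transcription factor Creb1 among them, and 2 rose, led by Rapgef3, the exchange factor Epac1 (1.94-fold). Under the covariate that list had 0 lower and 1 higher, and both Prkacb and Creb1 lost their calls; 3 were lower without mouse4592 and 2 after quantile normalization.

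Of 41 guidance and adhesion genes 12 were lower and 1 higher (median -0.27), with 4 lower with the Actb covariate and 10 lower without mouse4592. Ncam1, the neural cell adhesion molecule, read 7.63, 7.94, 7.30, 7.89 and 7.96 in tTA against 9.25 to 9.68 (median 9.36) in DN, 3.19-fold lower (adjusted p = 7.39e-06). Its 6 probe sets did not move together: 4 were lower and called, and the other 2 were at 0.01 and 0.12. Epha4, an ephrin receptor, was 2.50-fold lower (9.05 ± 0.17 in tTA, 10.37 ± 0.21 in DN), and its ligand Efnb2 was lower on 3 of 4 probe sets, with log2 differences between -1.81 and -2.42. Sema5a, a semaphorin, fell 3.85-fold, with 3.60 in mouse4592, 3.996 in mouse4626 and 5.47 to 5.76 in the other tTA mice, against 6.02 to 7.89 in DN. The tTA mean of Sema5a, 4.89, was dim.

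Neuropeptide and growth factor genes had few calls, in both directions. Beside Tac2, which rose, and Penk, which fell, the granin Scg2 was lower (7.49 ± 0.15 in tTA, 8.44 ± 0.14 in DN, adjusted p = 0.000678). In all, 1 of 20 neuropeptide genes was higher and 3 lower (5% and 15%, against 7.94% and 8.52% of all genes). Ntrk3, the neurotrophin-3 receptor, was 2.11-fold lower and Fgf1 1.55-fold higher, among 2 higher and 3 lower of 23. The covariate left 1 neuropeptide gene higher and 2 lower, and 0 growth factor genes higher and 3 lower, with Fgf1 no longer called; without mouse4592 both lists had 1 higher and 3 lower. Npy did not pass the test (6.13 ± 0.26 in tTA, 5.83 ± 0.17 in DN, adjusted p = 0.195).

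Activity genes gave a mixed picture. Of 28 immediate early genes 4 were lower and 1 higher (median -0.09), against 1 lower with the Actb covariate, 3 lower without mouse4592 and 2 lower after quantile normalization. Egr2, a zinc finger transcription factor, read 6.00, 5.13, 6.23, 4.96 and 4.54 in tTA against 7.06 to 8.85 (median 7.70) in DN, 5.42-fold lower (adjusted p = 0.00108), and was by far the largest change in the list. Nr4a3 fell 1.46-fold, a call lost with the covariate. Ier5 fell 1.41-fold, a call lost in 3 of 11 fits without 1 array. Arc, which is made at active synapses, was not called and ran the other way on average (6.70 ± 0.26 in tTA, 6.13 ± 0.50 in DN, adjusted p = 0.127). Plk2, a kinase induced by activity and by p53 that was counted in the p53 list, was 1.59-fold lower. Its arrays overlapped between genotypes, and the call was lost with the covariate. The p53 list had 2 higher and 0 lower with the covariate, and 1 higher and 2 lower without mouse4592. In the 250 bases before the start of each gene, the full cyclic AMP response element TGACGTCA was present in 2 of 22 immediate early genes with a RefSeq promoter (9.09%, against 1.77% of 27025 genes), and its core TGACG, which the full element contains, in 14 of 22 (63.6%, against 19.8%), both strands searched. The 2 with the full element, Btg2 and Dusp1, were not called (differences 0.14 and 0.27).

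The circadian clock list moved one way, with 9 of 18 genes lower and 0 higher (median -0.42). Bhlhe40, a clock repressor also known as Dec1, read 7.53, 7.72, 7.67, 8.01 and 7.70 in tTA against 8.50 to 8.75 (median 8.68) in DN, 1.91-fold lower (adjusted p = 0.000399). Dbp, a direct output gene of the clock, was 1.77-fold lower (6.23 ± 0.30 in tTA, 7.05 ± 0.20 in DN), and its groups did not overlap either. Per2, a core repressor, was lower (adjusted p = 0.00767) but overlapped, with 4.95, 5.08, 6.35, 5.87 and 5.10 in tTA and 6.13 to 6.60 in DN. The list had 3 genes lower with the Actb covariate and 7 lower without mouse4592. Clock genes cycle through the day, and no source used here gives the hour at which each mouse was killed, so time of day and genotype cannot be told apart. The E-box CACGTG, where clock activators bind, was found on either strand in the 250 bases before 4 of 15 clock genes (26.7%, against 6.86% of 27025 genes), namely Bhlhe41, Cry1, Per1 and Tef, none of which was called.

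Chaperones were lower in tTA, with 14 of 32 lower, 1 higher and a median of -0.25, and with 6 lower under the Actb covariate and 9 lower without mouse4592. Tcp1, a subunit of the ring-shaped chaperonin that folds actin and tubulin, was even within each genotype, at 11.15, 11.19, 11.15, 11.21 and 11.13 in tTA and 11.55 to 11.68 (median 11.60) in DN. The groups were far apart for the size of the spread, although the change was only 1.35-fold (adjusted p = 0.000265). Of the other 7 listed subunits of the same ring, Cct4, Cct6a, Cct7 and Cct8 were lower and passed the test, with log2 differences between -0.28 and -0.59, while Cct2 (-0.11, adjusted p = 0.280), Cct3 (-0.37, adjusted p = 0.0522) and Cct5 (-0.07, adjusted p = 0.635) did not pass. Hsph1, a nucleotide exchange factor of the heat shock system, was 1.36-fold lower.

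The unfolded protein response list overlapped the chaperones and had 5 of 24 genes lower and 1 higher, 4 lower with the Actb covariate and 5 lower without mouse4592. Atf6, the membrane-bound transcription factor that is cut and sent to the nucleus when proteins misfold in the endoplasmic reticulum, read 6.11, 5.39, 5.90, 6.35 and 6.64 in tTA against 7.14 to 7.60 (median 7.46) in DN, 2.49-fold lower (adjusted p = 0.000370). Hspa5 (BiP), the main chaperone of that compartment, was 1.63-fold lower (9.86 ± 0.24 in tTA, 10.57 ± 0.05 in DN), and Sel1l, an adaptor of protein disposal, 2.03-fold lower (7.51 ± 0.13 in tTA, 8.53 ± 0.16 in DN). These 3 genes had no overlapping arrays and kept their calls in every alternative. Cleaved ATF6 is known to act with NF-Y at the endoplasmic reticulum stress element, CCAAT and CCACG with 9 bases of any kind between them, and the promoters are shown because the genes that carry this element can be named. It was found, on either strand of the 250 bases before the start in RefSeq sequence of GRCm38.p6, in 7 of 46 chaperone and unfolded protein response genes (15.2%), against 35 of 27025 genes (0.130%). The 8 matches, read on the strand of each gene with the fixed letters in capitals, were
Hspa5, chr2:34772025-34772043, plus strand: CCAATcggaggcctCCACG
Hsp90b1, chr10:86705638-86705656, minus strand: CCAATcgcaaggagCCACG
Hsp90b1, chr10:86705533-86705551, minus strand: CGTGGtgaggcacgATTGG
Calr, chr8:84847075-84847093, minus strand: CGTGGtcgaccctcATTGG
Canx, chr11:50325800-50325818, minus strand: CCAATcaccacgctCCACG
Creld2, chr15:88819520-88819538, plus strand: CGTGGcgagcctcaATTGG
Dnajc3, chr14:118937827-118937845, plus strand: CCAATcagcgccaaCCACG
Pdia6, chr12:17266491-17266509, plus strand: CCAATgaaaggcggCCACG

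Of these 7 genes, all of which act in folding in the endoplasmic reticulum or in its regulation, Hspa5 and Hsp90b1 (10.30 ± 0.11 in tTA, 10.70 ± 0.09 in DN, adjusted p = 0.00535) were lower and called. The other 5 had differences between -0.06 (Canx) and -0.43 (Dnajc3) and did not pass the test, with Dnajc3 at adjusted p = 0.0528 and Calr at 0.0529. The whole window of Hspa5, chr2:34771840-34772089 on the plus strand, shows where its element lies, 65 bases before the start:
Hspa5: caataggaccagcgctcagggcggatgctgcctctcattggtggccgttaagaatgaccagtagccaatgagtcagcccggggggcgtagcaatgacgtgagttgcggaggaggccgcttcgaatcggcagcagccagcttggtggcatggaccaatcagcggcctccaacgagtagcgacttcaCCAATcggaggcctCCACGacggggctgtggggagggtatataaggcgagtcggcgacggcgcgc

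The element is a match of letters and no measure of binding.

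Of 34 proteasome genes 7 were lower and 3 higher, led by Psmc3, an ATPase of the cap (9.08 ± 0.07 in tTA, 9.62 ± 0.10 in DN, adjusted p = 0.00155), and of 29 splicing factor genes 6 were lower and 0 higher, led by Srsf10 (9.63 ± 0.21 in tTA, 10.27 ± 0.05 in DN). Other, less bright probe sets of Srsf10 stood at -0.43, -0.21 and -0.62 and were not called. The proteasome and splicing factor lists each had 1 gene lower with the Actb covariate, and without mouse4592 there were 4 proteasome genes lower and 2 higher and 5 splicing factor genes lower. Among genes that handle tau and microtubules 6 of 33 were lower and 2 higher, against 0 lower and 1 higher with the covariate and 4 lower and 2 higher without mouse4592. The dynein motor gene Dync1h1 was 2.04-fold lower, the tau kinase Dyrk1a 1.26-fold lower, and Cdk5r2 (p39), an activator of the tau kinase Cdk5, 1.48-fold higher, and of these 3 only Cdk5r2 kept its call with the covariate. The other probe set of Cdk5r2 stood at 0.19 and was not called (adjusted p = 0.648). Other probe sets of Dyrk1a stood at -0.24 and -0.52 and were not called. Mapt, which encodes mouse tau, was not called (6.35 ± 0.24 in tTA, 6.66 ± 0.17 in DN, adjusted p = 0.116). App, the amyloid precursor, was 1.78-fold lower (9.96 ± 0.22 in tTA, 10.79 ± 0.19 in DN, adjusted p = 0.000552) on a tight pattern with no overlap.

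Genes for ribosomes and mitochondria were higher. Of 60 genes for cytosolic ribosomal proteins 42 rose and 0 fell (70.0%, against 7.94% of all genes; median 0.45), and of 65 genes of oxidative phosphorylation 33 rose and 0 fell (median 0.28). Rpsa read 11.62, 11.48, 11.87, 11.78 and 11.68 in tTA and 10.63 to 10.98 (median 10.88) in DN, a 1.82-fold rise (adjusted p = 0.000137). Atp5e, a small subunit of ATP synthase, was 1.78-fold higher (10.77 ± 0.14 in tTA, 9.94 ± 0.10 in DN, adjusted p = 1.58e-05) and Uqcr11, a subunit of complex III, 2.05-fold higher (9.31 ± 0.23 in tTA, 8.28 ± 0.19 in DN). Each of these had all tTA arrays above all DN arrays. The mean of the ribosomal list ran from 10.4 to 10.8 over tTA arrays and from 10.004 to 10.245 over DN arrays. The mean of the oxidative phosphorylation list ran from 10.4 to 10.5 over tTA arrays and from 10.1 to 10.3 over DN arrays. Without mouse4592 there were 31 and 34 rises, and with the Actb covariate 4 and 9, with medians of 0.29 and 0.25. Several ribosomal genes have near-identical pseudogenes, which short probes cannot tell apart.

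**Figure D3:**
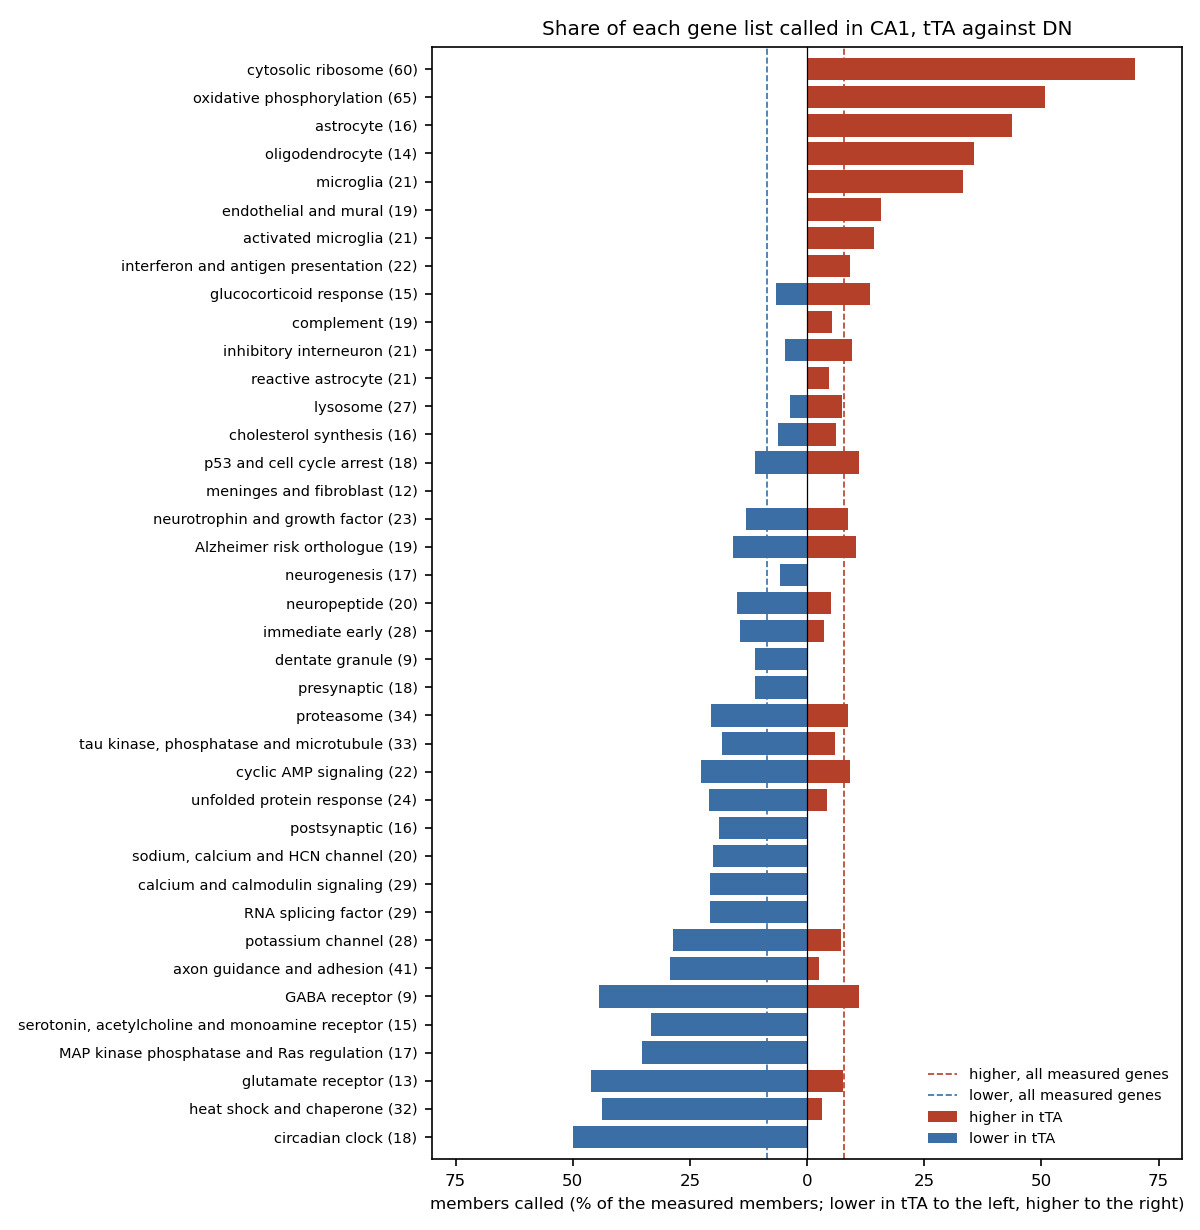
Share of the measured members of each gene list (number in brackets) called higher in tTA (red, to the right) and lower in tTA (blue, to the left) in CA1, horizontal axis in percent, with dashed lines at the shares over all 11807 measured genes. Cytosolic ribosome (70.0% higher) and circadian clock (50.0% lower) stand at the ends.

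The direction of a change went with the length of the gene. The span of 11796 genes in the RefSeq annotation of GRCm38.p6, a property that played no part in the choice of genes, had a median of 10.1 kb in genes called higher, 48.2 kb in genes called lower and 18.9 kb in genes not called. In 4 groups of 2949 genes ordered by span, the shortest (median 4.09 kb) had 13.2% called higher and 2.65% lower, and the longest (median 92.7 kb) had 3.83% called higher and 17.3% lower. The same slope was seen in CA3 (8.07% higher and 1.05% lower among the shortest, 1.90% higher and 10.8% lower in the longest) and in the dentate gyrus (10.8% and 2.88%, 5.87% and 18.3%), in arrays of the same mice, and with the Actb covariate in CA1 (2.34% and 0.712%, 0.780% and 4.98%). Among the lists, the median span was 3.17 kb for ribosomal and 7.08 kb for oxidative phosphorylation genes, and 319 kb for glutamate receptor, 155 kb for guidance and adhesion and 138 kb for sodium, calcium and HCN channel genes. Chaperones (12.8 kb) and MAP kinase and Ras regulators (16.4 kb) lay by their median in the second group (7.84 to 19.4 kb). In that group 8.82% of genes were called higher and 4.95% lower. Chaperones gave 1 higher and 14 lower of 32, and MAP kinase and Ras regulators 0 and 6 of 17, counter to the slope. Receptors for serotonin, other monoamines and acetylcholine (21.3 kb) lay in the third group. The calls of some other lists ran counter to the slope. Short genes of the unfolded protein response (7.99 kb) and immediate early (5.32 kb) lists gave more lower than higher calls, with medians of -0.14 and -0.09. The neuropeptide list (6.33 kb) gave 3 lower calls and 1 higher, but its median was 0.13, with 13 of 20 genes positive. Endothelial and mural markers, at 39.9 kb, gave 3 higher and 0 lower of 19, and the calls of Ly6c1 and Cldn5 among them were unstable. The part of span, of the Actb ratio and of cell content in these counts was not tested.

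**Figure D4:**
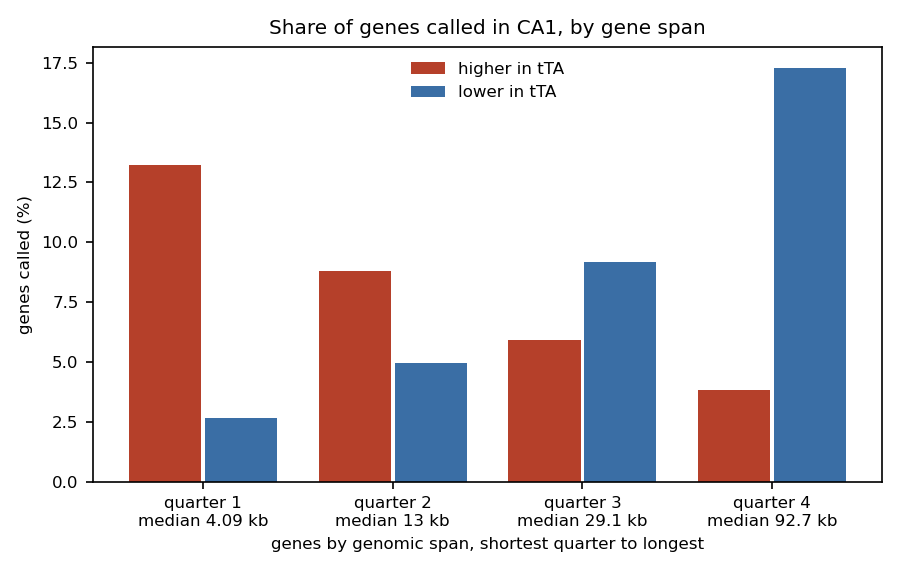
Percent of genes called higher in tTA (red) and lower in tTA (blue) in CA1, in 4 equal groups of genes from the shortest to the longest genomic span (horizontal axis, with the median span in kb). Red bars fall from 13.2% to 3.83% and blue bars climb from 2.65% to 17.3%.

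Markers of glia were higher in tTA captures. In bulk captures more cells of a type and more RNA per cell cannot be told apart. Of 16 astrocyte markers 7 were higher and 0 lower (median 0.42), of 21 microglia markers 7 and 0 (median 0.49), and of 14 oligodendrocyte markers 5 and 0 (median 0.54). Without mouse4592 these became 6, 3 and 3, and with the Actb covariate 1, 0 and 0. The mean of the astrocyte list ran from 7.80 to 8.28 over tTA arrays and from 7.47 to 7.90 over DN arrays, that of the microglia list from 5.39 to 5.82 in tTA and from 4.93 to 5.25 in DN, and that of the oligodendrocyte list from 6.30 to 7.25 in tTA and from 5.85 to 6.54 in DN. Only the microglia means were free of overlap. The part of these cell types in the other gene groups was not tested.

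Gfap, the astrocyte filament protein that rises in reactive glia, read 8.09, 7.79, 8.79, 8.77 and 8.55 in tTA against 7.06 to 7.87 (median 7.37) in DN, a 1.99-fold rise (adjusted p = 0.0147) with 1 tTA array inside the DN range. That call was lost with the Actb covariate and in the test on anti-log values. The other probe set of Gfap was not called (7.88 ± 0.63 in tTA, 7.18 ± 0.42 in DN, adjusted p = 0.142). S100b (8.73 ± 0.17 in tTA, 8.08 ± 0.18 in DN) and the astrocytic aldolase Aldoc (9.88 ± 0.16 in tTA, 9.23 ± 0.25 in DN) rose with smaller spread. Gfap was the 1 gene called of 21 genes of reactive astrocytes. Tyrobp, the microglial adaptor of Trem2, read 7.71, 7.44, 8.35, 8.40 and 8.09 in tTA against 6.62 to 7.46 (median 7.02) in DN (1.97-fold, adjusted p = 0.00800). C1qb, of the complement C1 complex and dim in DN, was 2.10-fold higher (5.62 ± 0.64 in tTA, 4.55 ± 0.14 in DN). It was the 1 gene called of 19 complement genes (5.26%, against 7.94% of all genes). The calls of Tyrobp and C1qb were lost with the Actb covariate and in the test on anti-log values. That of C1qb was also lost without mouse4592. Trem2 was dim and not called (3.76 ± 0.23 in tTA, 3.63 ± 0.09 in DN, adjusted p = 0.492). C4b, a complement gene of aging glia, was dim and missed the threshold although its groups did not overlap (4.32 ± 0.08 in tTA, 3.66 ± 0.19 in DN, adjusted p = 0.0835). Mobp, of myelin, was 2.11-fold higher and Apoe, the main lipid carrier of the brain, 1.69-fold higher. The other probe set of Mobp stood at 0.67 and was not called (adjusted p = 0.150). Apoe lost its call in 3 of 11 fits without 1 array.

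Of 19 endothelial and mural markers 3 were higher (Rgs5 of pericytes 1.73-fold, and Ly6c1 and Cldn5 close to the threshold, their calls lost in 9 and 8 of 11 fits without 1 array), of 12 meningeal and fibroblast markers 0 were called, and of 3 red blood cell genes 1 (Hba-a1). Of 7 choroid plexus and ependymal markers Ttr and Kcne2 were higher and Kl lower, all 3 dim in tTA, and the list mean ran from 3.43 to 3.60 in tTA and from 3.59 to 3.69 in DN. Ttr and Kcne2 each lost the call in 8 of 11 fits without 1 array, and 0 markers of this list were higher after quantile normalization, with the Actb covariate, or without mouse4592 or mouse4886. Among 21 interneuron genes 2 were higher and 1 lower (9.52% and 4.76%, against 7.94% and 8.52% of all genes). Both with the covariate and without mouse4592 the counts were 1 and 0. Pvalb, parvalbumin of basket cells, read 10.30, 10.13, 10.10, 9.78 and 10.63 in tTA and 8.72 to 9.51 (median 9.07) in DN, a 2.09-fold rise (adjusted p = 0.00282) without overlap. Gad2, the GABA-synthesizing enzyme of all these cells, did not follow it (8.38 ± 0.39 in tTA, 8.45 ± 0.20 in DN, adjusted p = 0.83).

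Markers of the pyramidal cells themselves gave 1 call. Wfs1 read 11.05, 11.41, 11.40, 11.79 and 11.39 in tTA and 12.15 to 12.30 in DN (1.73-fold lower, adjusted p = 0.00323), a call lost with the Actb covariate. Pou3f1 (9.28 ± 0.34 in tTA, 9.71 ± 0.18 in DN), Itpka (8.61 ± 0.42 in tTA, 8.64 ± 0.26 in DN) and Lefty1 (6.50 ± 0.54 in tTA, 6.37 ± 0.21 in DN) were not called. Of the granule cell markers 1 of 9 was called, the dim Prox1 (2.14-fold lower, a call lost in 7 of 11 fits without 1 array), while Calb1 (8.68 ± 0.32 in tTA, 8.96 ± 0.11 in DN), Il16, Dsp, Tdo2, Pdzrn3, Stxbp6, Pitpnm2 and Trpc6 were not. Of 6 CA3 markers 2 were lower, the R-spondin Rspo2 and the adhesion molecule Nectin3, which lost its call in 7 of 11 fits without 1 array; 1 was lower with the covariate, without mouse4592 or without mouse4886. Homer2, a postsynaptic scaffold, stood at 8.97 ± 0.32 in tTA and 9.01 ± 0.25 in DN.

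Metabolic and hormonal genes added single changes. Mt1, a metal-binding metallothionein, was 1.79-fold higher (9.87 ± 0.20 in tTA, 9.03 ± 0.10 in DN), and Hsd11b1, which regenerates active glucocorticoid, was 2.04-fold higher with tTA arrays between 8.29 and 8.45 and DN arrays between 7.15 and 7.71 (adjusted p = 0.000165). Nr3c1, the glucocorticoid receptor, was 1.41-fold lower and lost its call in 9 of 11 fits without 1 array. In cholesterol synthesis Mvk, dim in DN, rose 1.54-fold and Fdps fell 1.39-fold, and 14 of 16 genes were not called. Of 22 interferon and antigen presentation genes 2 were higher (9.09%, near the 7.94% of all genes), Ifitm3 and Psmb10, and 0 with the covariate.

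At the chromosome 12 locus of the tTA transgene, 3 of 6 listed genes were measured. Ptprn2, a transmembrane phosphatase-like protein of dense-core vesicles, read 5.41, 6.10, 5.66, 5.63 and 5.36 in tTA against 6.61 to 7.34 (median 6.84) in DN, 2.38-fold lower with no overlap (log2 -1.25 ± 0.19, adjusted p = 0.000463), and kept its call in every alternative. Vipr2, the VPAC2 receptor gene next to the reported insertion, was at the floor in both genotypes (3.17 ± 0.13 in tTA, 3.36 ± 0.16 in DN, adjusted p = 0.188), so that no change could be seen there, and the condensin gene Ncapg2 was dim (4.64 ± 0.36 in tTA, 4.70 ± 0.21 in DN, adjusted p = 0.796). Among the 20 protein-coding genes on each side of Vipr2 in the annotation (34 in all, since fewer lie toward the chromosome end), 17 were measured and 3 called: Ptprn2, the adjacent zinc finger gene Zfp386, higher by 0.73 (adjusted p = 0.00286), and Cdca4, higher by 0.50 (adjusted p = 0.0188). Apart from chromosome Y, where 0 of 11 genes were called, the share of genes called by chromosome ran from 13.2% on chromosome 10 to 19.8% on chromosome 8, with 17.9% on chromosome 12. Fgf14, the gene that harbors the tau transgene in rTg4510 mice, was at 8.34 ± 0.13 in tTA and 8.67 ± 0.07 in DN, with no overlap between the arrays, and missed the threshold (-0.34, adjusted p = 0.0549), and it was called lower in 6 alternatives and without mouse4570. It was called lower in CA3 (-0.46, adjusted p = 0.00688) and in the dentate gyrus (-0.50, adjusted p = 0.00107).

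The same contrast was set beside CA3 and the dentate gyrus, where 2057 (9.09%) and 3769 (16.7%) probe sets were called between tTA and DN. The difference between subfields, tested in 1 model of 49 arrays with the mouse as a random block, was called for 163 probe sets (0.72%) for CA1 minus CA3 and for 374 (1.65%) for CA1 minus DG; 127 and 169 of them were also called in CA1. Grem1 changed in CA1 and stood at -0.07 in CA3 and 0.01 in the dentate gyrus (interaction adjusted p = 4.05e-08 and 5.79e-09). In both of those subfields it was at the floor in both genotypes (3.06 to 3.18), where no fall could be seen. Tac2 was higher by 2.92 in CA1, 0.33 in CA3 and 0.76 in the dentate gyrus, of which the CA3 value was not called; its group means outside CA1 were 3.31 to 4.09, all dim. Bace2 differed by 0.11 in CA3 and 0.11 in the dentate gyrus, neither called, against 1.68 in CA1 (interaction adjusted p = 1.22e-05 and 3.39e-06), at group means of 3.54 to 3.72 outside CA1, near the floor. Htr1a and Htr1b, lower in CA1, had 0.05 and 0.18 in CA3 and -0.34 and 0.33 in the dentate gyrus (Htr1b was called higher there), and the interaction was called for both genes in both subfields. Htr1b was dim outside CA1 (3.96 to 4.29).

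Doc2b stood at -2.38 in CA1, -3.21 in the dentate gyrus and 0.23 in CA3 (log2 tTA minus DN, as for the values that follow; CA1 minus CA3 adjusted p = 9.99e-10, CA1 minus DG 0.0528). Penk stood at -2.11 in CA1, -3.23 in the dentate gyrus and -0.17 in CA3, and C1ql3 at -2.94, -1.41 and 0.73. Doc2b (3.31 in tTA, 3.09 in DN) and Penk (3.98 in tTA, 4.16 in DN) were dim in CA3, which limits any fall there. Tbr1 was higher by 1.72 in CA1 and 1.20 in the dentate gyrus and at -0.08 in CA3 (CA1 minus CA3 adjusted p = 1.93e-07), and Prss23 by 2.56 and 2.70, against 0.06. Kcnn2, the SK2 potassium channel, was lower in CA1 (-0.55) and higher in the dentate gyrus (0.70), with an interaction adjusted p of 2.16e-06. Cxcl12, a chemokine, and Ogn, a small proteoglycan, were lower in the dentate gyrus (-3.64 and -2.97) and not called in CA1 (-0.52 and -0.06), where Ogn was at the floor (2.85 ± 0.21 in tTA, 2.90 ± 0.20 in DN) and this probe set of Cxcl12 dim (3.96 ± 0.16 in tTA, 4.48 ± 0.74 in DN). The other probe set of Cxcl12 was higher in CA1 (6.94 ± 0.34 in tTA, 6.19 ± 0.34 in DN, adjusted p = 0.0101).

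Microglia and astrocyte markers were called higher in all 3 subfields, while oligodendrocyte markers gave 5 calls in CA1, 1 in CA3 and 4 in the dentate gyrus. Microglia markers called higher numbered 7 in CA1, 12 in CA3 and 13 in the dentate gyrus of 21, and astrocyte markers 7, 9 and 13 of 16. Gfap was higher by 0.99, 1.52 and 2.53 in CA1, CA3 and the dentate gyrus (CA1 minus DG adjusted p = 0.00213), and C4b by 0.66, 0.78 and 2.87, the first of which was not called in CA1 nor the second in CA3. Ribosomal genes called higher numbered 42, 43 and 33 of 60. Clock genes called lower numbered 9 in CA1, 2 in CA3 and 8 in the dentate gyrus of 18, and chaperones 14, 8 and 11 of 32. Over all 11807 measured genes, 937 were called higher and 1006 lower in CA1, against 521 and 542 in CA3. In the dentate gyrus the numbers were 942 and 1121. CA3 had fewer calls over all genes, so a lower list count there is not by itself a trait of the list.

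**Figure D5:**
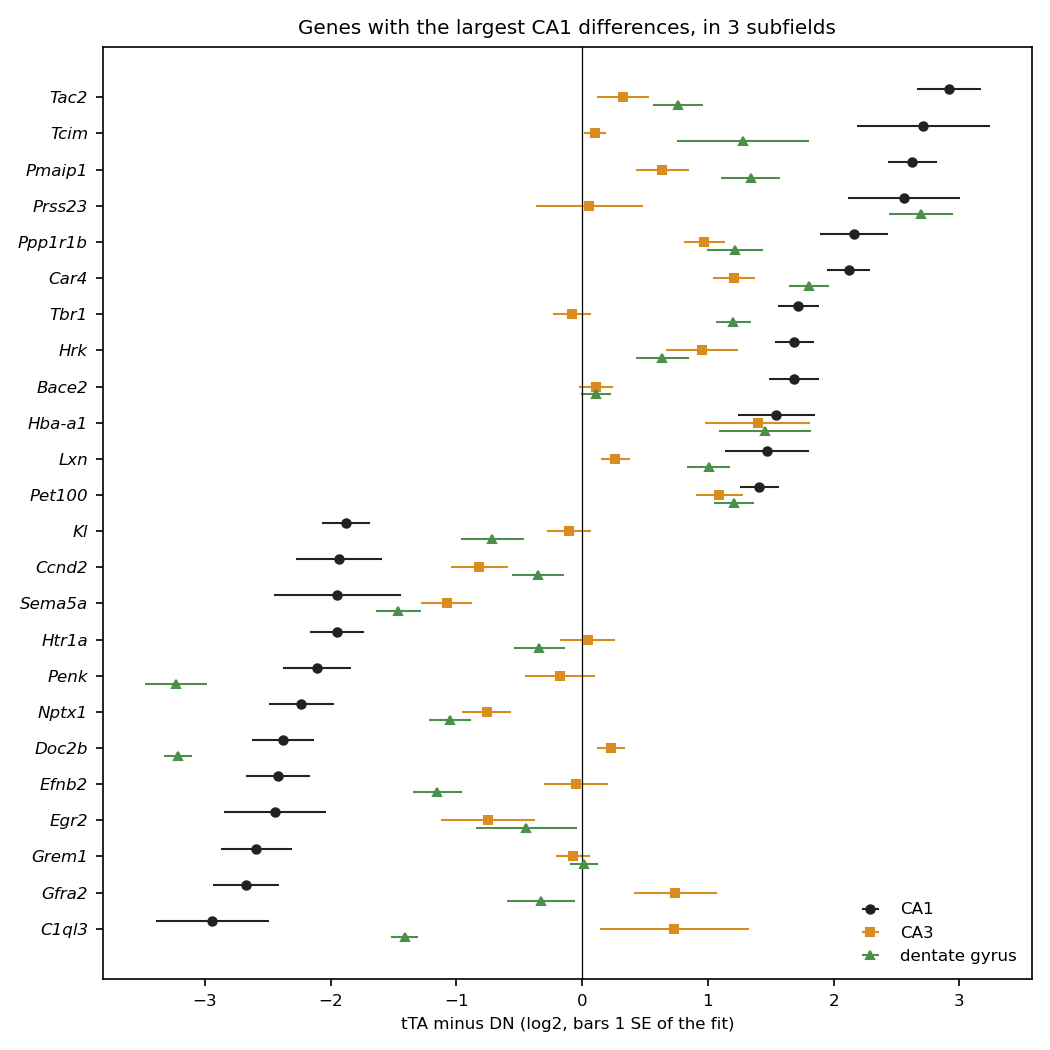
Log2 difference tTA minus DN with 1 SE of the fit (horizontal axis) in CA1 (black circles), CA3 (orange squares) and dentate gyrus (green triangles) for the 12 genes with the largest rises and the 12 with the largest falls in CA1. Grem1 and Bace2 lie near 0 outside CA1, where both are near the floor of the array in both genotypes, while Doc2b and Penk are as low or lower in the dentate gyrus.

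rTg4510 mice carry the tTA transgene as well, and their CA1 arrays were set against the same DN arrays, which the comparisons therefore share. Their numbers ran from mouse4535 to mouse4666, like those of tTA mice apart from the DN range. Birth cohort and genotype can thus not be told apart here either, and a like value in both genotypes does not separate them. For rTg4510 minus DN 5300 probe sets were called (23.4%), and 2405 for rTg4510 minus tTA (10.6%). Tac2 was higher by 2.92 in tTA and by 1.23 in rTg4510, Pmaip1 by 2.62 and 1.77, and Car4 by 2.12 and 2.19. Grem1 stood at -2.59 in tTA and -2.56 in rTg4510, Doc2b at -2.38 and -3.58, Gfra2 at -2.67 and -2.16, and Ptprn2 at -1.25 and -1.42. Bace2, higher by 1.68 in tTA, was at 0.19 in rTg4510 (3.85 ± 0.15, near the floor) and not called there, and Sema5a, at -1.95 in tTA, was at -0.41 and not called. Gfap was higher by 0.99 in tTA and 3.55 in rTg4510, and C1qb by 1.07 and 2.91.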

How the data were processed

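Laser-captured CA1, CA3 and dentate gyrus layers were profiled on Affymetrix HT-MG-430A arrays after whole transcriptome amplification and biotin labeling; mouse and genotype came from the labels. The deposited log2 values had been made by the authors with RMA, which subtracts background, makes the arrays share 1 distribution and summarizes each probe set; which arrays were normalized together, and any detection calls, are not given in the sources used here. Array medians lay between 4.95 and 5.07, and the number of arrays limits the precision. Of 22716 probe sets, 90 controls were left out; 18003 had 1 gene symbol, 287 had several and 4336 had none. The 16 CA1 arrays of 3 genotypes were fitted with limma 3.58.1 (R 4.3.3), contrast tTA minus DN, with Benjamini-Hochberg adjustment over 22626 probe sets and a threshold of 0.05. Subfield differences came from 1 model of 49 arrays in which the mouse, named in each title, was a random block (consensus correlation 0.117), because arrays of different subfields of 1 mouse deviated together (median r 0.119 over 47 pairs, -0.00310 between mice). The brightest probe set stood for a gene in 48 gene lists, counted without a set test. Other probe sets of a gene, which can differ from it, are given for some genes only. Named were the 12 largest rises and falls with arrays that did not overlap and a brighter mean at or above the median, up to 3 called members per list, transgene, CA1 and granule cell genes, some marker genes whatever their value, and the 4 largest subfield differences; others are marked. Members and lists were chosen with earlier results of these data known. The fit was tested on simulated data with known changes. Motifs were searched with Python 3.11.15. Alternatives covered normalization, filters, tests, arrays in the fit, the Actb covariate and each array left out.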

Additional observations from a re-analysis of the deposited data

Results flagged for a closer look

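In 14 of 300 sets of arrays (1 gene in 1 genotype) the highest or lowest array lay far from the rest of its group, where chance alone sets apart about 1 in 20 such sets. 3 of them were arrays of tTA mouse4592: Atp2a2 at 10.3, Hba-a1 at 10.1 and Trpc6 at 4.37. The other tTA arrays were Ryr2 at 7.07 in mouse4570, Rapgef3 at 8.13 in mouse4637, Hsd11b1 at 8.29 in mouse4580 and Dlx1 at 4.94 in mouse4626. The DN arrays were Nptx1 at 8.09, Hnrnpk at 10.8 and Stxbp6 at 3.46 in mouse4866, Doc2b at 7.12 and Ppp1r1b at 5.20 in mouse4883, Per2 at 6.13 in mouse4825 and Wfs1 at 12.3 in mouse4806.

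For the named probe sets the difference tTA minus DN in CA1, less the same difference in another subfield, passed an adjusted p of 0.05 in the model with the mouse as block 22 times against CA3 and 27 times against the dentate gyrus. A positive value means that the tTA difference was higher in CA1. The 22 for CA1 minus CA3 were 1.57 (Bace2), 1.80 (Tbr1), 0.90 (Car4), 1.99 (Pmaip1), 2.60 (Tac2), -1.93 (Efnb2), -2.38 (Efnb2), -2.61 (Doc2b), -1.47 (Nptx1), -1.54 (Htr1b), -1.79 (Kl), -3.67 (C1ql3), -2.52 (Grem1), -3.42 (Gfra2), -1.23 (Ncam1), -1.94 (Penk), -1.27 (Kcnh7), 2.50 (Prss23), -2.0001 (Htr1a), -1.21 (Cacng3), -0.90 (Scg2), 2.61 (Tcim). The 27 for CA1 minus DG were 1.57 (Bace2), -2.21 (C4b), 1.28 (Pmaip1), 2.16 (Tac2), -1.27 (Efnb2), 2.92 (Ogn), -0.94 (Nr4a3), -1.18 (Nptx1), -1.70 (Htr1b), -1.16 (Kl), -0.87 (Homer2), -2.60 (Grem1), -2.35 (Gfra2), -1.52 (Slc8a1), -1.53 (Gfap), -1.99 (Egr2), -2.57 (Ccnd2), 0.59 (Mvk), -1.58 (Ccnd2), -1.61 (Htr1a), -1.06 (Ctsa), -1.10 (Wfs1), 3.12 (Cxcl12), -1.26 (Kcnn2), 2.004 (Trpc6), 0.81 (Scg2), -1.02 (Rspo2).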

How the results depend on the processing

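Calls numbered 2660 (without DN mouse4886) to 3417 when 1 array was left out, 3135 to 4534 under other scalings, filters, weights and tests, and 866 (295 higher, 571 lower) with the Actb ratio as covariate, against 3656; list genes called numbered 74 with that covariate, against 262. The share of calls that were higher was 45.2%, 50.0% after a further quantile normalization, 54.9% after centring and 37.1% without dim probe sets. With the mouse as replicate block in a model of 49 arrays 4534 were called, and 4510 with no block; for the subfield differences 163 (CA1 minus CA3) and 374 (CA1 minus DG) were called with the block and 125 and 254 without it. Leaving out 1 mouse gave 106 (without DN mouse4883) to 180 and 234 (without DN mouse4797; 242 without DN mouse4886) to 375. Of 150 named probe sets 126 were called; 60 kept the call in every alternative, 20 lost it in a fit without 1 array, 66 in another alternative, and 0 reversed. Uncalled differences near 0 changed sign. With the covariate they were 0.0345 (Pitpnm2), -0.0311 (Trem2), 0.0563 (Homer2), 0.192 (Trpc6) and -0.0398 (Camk2a); after quantile normalization 0.0200 (Itpka), 0.0262 (Trpc6) and -0.00826 (Camk2a); after centring 0.00425 (Itpka) and 0.0330 (Trpc6); with array weights 0.0562 (Trpc6) and -0.0159 (Camk2a). The cause was not tested. Without 1 array the range was -0.0217 to 0.271 (Lefty1), -0.157 to 0.0326 (Ncapg2), -0.157 to 0.0953 (Gad2), -0.179 to 0.102 (Itpka), -0.163 to 0.0254 (Homer2), -0.0924 to 0.184 (Trpc6), -0.0627 to 0.0694 (Camk2a). The list counts with the Actb covariate, after centring and without mouse4592 or mouse4886 were added after seeing the data.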
